A study of Mus musculus with 10 samples.

Results

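The enzymes of one-carbon metabolism and transsulfuration were examined in testes of mice whose mothers had been undernourished in pregnancy. The set was Mat2a, Mat2b, Ahcy, Mtr, Shmt1, Shmt2, Mthfd1, Cbs and Cth, which are 9 of 23462 genes that probes of the array could be matched to. A gene was represented by its brightest probe, that is, the one with the highest mean signal over all arrays, and its other probe, where it had one, is given beside it. The 9 genes had 15 of 56605 probes. The genes were chosen by name, with the earlier value of Cth in view, which had been among the deepest falls in these data, and the probe that stands for a gene was selected on its mean level of signal.

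R testes came from 5 male offspring of dams that were given 50% of the mean control intake from 6.5 days after mating. These males were fostered by unrelated control dams. C testes came from 5 male offspring of dams fed freely, and their own mothers raised them, so the groups differ in fostering as well as in prenatal diet. All animals were C57BL/6N, ate regular chow freely after weaning and were killed at 6 weeks (42 days) of age, and each array carried the RNA of a single testis.

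In this pathway a carbon unit is taken from serine by the serine hydroxymethyltransferases and carried on folate. Methionine synthase passes it to homocysteine, and the methionine so formed is turned into S-adenosylmethionine (SAM), the methyl donor for DNA, RNA, histones and many small molecules. After the methyl group is used, homocysteine is regenerated, or it leaves the cycle by transsulfuration and becomes cysteine, from which glutathione is made. In the testis the pathway serves DNA synthesis in dividing germ cells, DNA and histone methylation, and the polyamines that draw on SAM.

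Levels are log2 of the processed spot intensity minus log2 of the same array's 75th percentile, called the log2 signal, and log2 changes are R minus C. The 75th percentile lay between 840 and 1019 on the R arrays and between 804 and 1005 on the C arrays, and no spot was saturated. The tissue label was checked on markers of elongating spermatids, which were measured at 9 of 9 genes with a summed level of 1350 to 1530 times the 75th percentile in R and 1300 to 1540 in C. C replicate 2 stood apart with a median intensity of 61.4, against 87.3 to 106 in the R arrays and 82.7 to 94.5 in the other C arrays, and it was the highest C array at 8 of the 9 genes. In the authors' deposited table, R replicate 1 counted among the controls and C replicate 5 among the test arrays. The group labels say otherwise and were followed here. The slides differed in composition, with 4 R and 2 C arrays on slide 1 and 1 R and 3 C arrays on slide 2.

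At their brightest probes most of the 9 enzymes were lower in R testes, and none was called higher. Another probe was tested for 5 of the genes, and of these 0 were called lower and 1, of Mtr, higher. Of all tested probes 17.1% were called lower and 21.4% higher. At the brightest probes Mat2b fell 1.65-fold and Ahcy 1.44-fold, Mat2a, Mthfd1, Shmt1 and Shmt2 fell less, and Mtr and Cbs did not pass. By limma with Benjamini-Hochberg adjustment over 33851 probes, 6 of the 8 enzymes other than Cth were lower at an adjusted p under 0.05, against 20.6% of 16738 genes tested. At 5 of these 8 every R array lay below every C array, against 16.5% of all tested genes. Their median log2 change was -0.30, against -0.03 over all tested genes. Mat2a counts among the 6 and the 5, though its probe ranked as the brighter one through the C arrays. The other Mat2a probe was at a log2 change of 0.06 (limma adjusted p = 0.588). Cth, which was picked with its fall known and passed the filter on dim probes through the C arrays alone, brings the counts to 7 and 6 of 9 and leaves the median at -0.30, also at its bound.

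**Figure D1:**
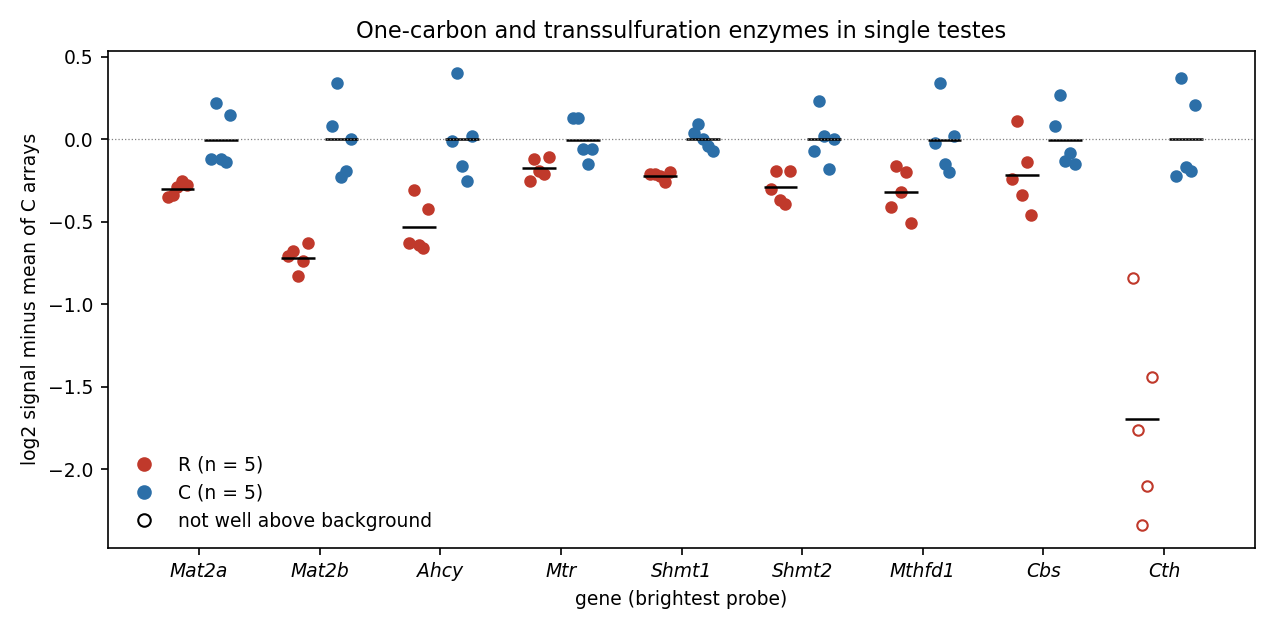
Log2 signal of the brightest probe of each gene minus the mean of the C arrays (vertical axis) for the 9 genes (horizontal axis), with 1 point per testis, R in red left of C in blue and the group mean as a bar. R and C points do not overlap at Mat2a, Mat2b, Ahcy, Shmt1, Shmt2 and Cth, and the 5 open R points of Cth were not well above background.

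These counts depended on single arrays. The counts that follow are of the 8 enzymes other than Cth, unless all 9 are named. Without C replicate 2, limma called 5 of the 8 lower, and Mthfd1 was the one lost (adjusted p = 0.0583). Of all tested probes 16.1% were then called lower, against 17.1% with all arrays. Without R replicate 1, limma called 3 lower, namely Ahcy, Mat2b and Shmt1, against 12.7% of all tested probes. Without both R replicate 1 and C replicate 5, limma called 2 lower, Mat2b and Shmt1, against 8.7% of all tested probes. With these 2 arrays grouped as in the authors' deposited table, limma called 0 of the 9 (1 past an unadjusted 0.05) and 0 of 33851 probes, with 2567 past an unadjusted 0.05. A comparison of linear intensities with equal variance, the test behind that table, also called 0 of the 9 in that grouping, with 1 at an unadjusted p under 0.05. When slide was a block in the fit, all 8 were called lower. The share of all tested probes called lower was then 23.0%, against 17.1% without the block. Slide 1 by itself gave 6 of the 8 called lower. Of all 33851 tested probes 6081 were then called lower, against 5798 with all arrays. For slide 2, with its single R array, only log2 changes are given. Each of the 9 log2 changes was below 0 within slide 1 and within slide 2, where Mtr was at -0.02.

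The methionine cycle starts with SAM synthesis, which is carried out outside the liver by the enzyme whose catalytic subunit is encoded by Mat2a, on chromosome 6. Mat2a read 3.32, 3.33, 3.38, 3.42 and 3.39 in R replicates 1 to 5, against 3.55, 3.89, 3.55, 3.53 and 3.82 in C replicates 1 to 5. The R values were tightly grouped and lay below all C values, among which C replicates 2 and 5 were highest. At this probe Mat2a was 1.23-fold lower in R (log2 change -0.30 ± 0.09, SE, n = 5 per group, limma adjusted p = 0.0205), and the call was lost without R replicate 1 (adjusted p = 0.0502). The other Mat2a probe, described below, was at a log2 change of 0.06 and was not called.

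Mat2b, on chromosome 11, encodes the regulatory subunit of the same enzyme. Its brightest probe read -0.04, -0.01, -0.16, -0.07 and 0.04 in R, against 0.75, 1.01, 0.44, 0.48 and 0.67 in C. The groups were far apart, with R near the 75th percentile of the array and C above it. At this probe Mat2b was 1.65-fold lower in R (95% interval 1.40 to 1.94, n = 5 per group, limma adjusted p = 0.00202), and it was called as each array was left out in turn, at log2 changes between -0.78 and -0.64. The other Mat2b probe, described below, was at a log2 change of 0.02 and was not called.

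Ahcy, on chromosome 2, encodes the hydrolase that removes S-adenosylhomocysteine, the product and inhibitor of methyl transfer. Ahcy read -3.78, -3.46, -3.79, -3.81 and -3.57 in R, against -3.16, -2.75, -3.31, -3.40 and -3.13 in C. All R arrays lay below all C arrays, with R replicate 2 the nearest to the C range. Ahcy was 1.44-fold lower in R (95% interval 1.19 to 1.75, n = 5 per group, limma adjusted p = 0.0109). Ahcy had a single probe, a dim one. With normexp background correction, which raises dim spots, its log2 change was -0.34, against -0.53, and it was still called (limma adjusted p = 0.00842). The call was kept as each array was left out in turn (adjusted p up to 0.0297), but not without R replicate 1 and C replicate 5 together (adjusted p = 0.0574).

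Mtr, on chromosome 13, encodes methionine synthase, which joins the folate and methionine cycles and needs vitamin B12. Its brightest probe read -0.34, -0.21, -0.28, -0.30 and -0.20 in R, against 0.04, 0.04, -0.15, -0.24 and -0.15 in C. C replicate 4 lay within the R range, so that the groups overlapped. The log2 change was -0.17 ± 0.07 (SE, n = 5 per group, limma adjusted p = 0.0837). Mtr was called lower when signals were taken relative to the array median (adjusted p = 0.0209), when slide entered the fit (adjusted p = 0.0374) and without C replicate 4 (adjusted p = 0.0463).

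The folate branch begins with the serine hydroxymethyltransferases, of which Shmt1, on chromosome 11, encodes the cytosolic and Shmt2, on chromosome 10, the mitochondrial form. Shmt1 read -0.96, -0.96, -0.97, -1.01 and -0.95 in R, against -0.71, -0.66, -0.75, -0.79 and -0.82 in C. The R testes were almost uniform, and their highest value was below the lowest of C. Shmt1 was 1.17-fold lower in R (95% interval 1.07 to 1.27, n = 5 per group, limma adjusted p = 0.0123), a small but regular difference that was called as each array was left out in turn. In the authors' deposited table, Shmt1 was the only gene of the 9 that was listed, with a log2 ratio of test over control side of -0.13, a p-value of 0.0185 and a q-value of 0.515 in that table's own grouping.

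Shmt2 read -1.04, -0.93, -1.11, -1.13 and -0.93 in R, against -0.81, -0.51, -0.72, -0.92 and -0.74 in C. The groups did not overlap, though C replicate 4 came within 0.01 of R replicates 2 and 5. Shmt2 was 1.22-fold lower in R (95% interval 1.07 to 1.39, n = 5 per group, limma adjusted p = 0.0246), and the call was lost without R replicate 1, 3 or 4 (adjusted p up to 0.0605).

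Mthfd1, on chromosome 12, encodes the cytosolic enzyme with several activities that interconverts the carbon units on folate. Its brightest probe read 1.08, 1.33, 1.17, 1.29 and 0.98 in R, against 1.47, 1.83, 1.34, 1.29 and 1.51 in C. R replicates 2 and 4 reached the lower end of the C range. Mthfd1 was 1.25-fold lower in R (95% interval 1.05 to 1.49, n = 5 per group, limma adjusted p = 0.0453). This call was close to the threshold and was lost without any single one of 7 arrays, the highest adjusted p being 0.0996. The other Mthfd1 probe, described below, was at a log2 change of 0.17 and was not called.

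Transsulfuration has 2 steps. Cbs, on chromosome 17, encodes the synthase that joins homocysteine and serine to cystathionine. Cbs read -3.09, -2.74, -3.19, -2.99 and -3.31 in R, against -2.77, -2.58, -2.98, -2.93 and -3.00 in C. R replicate 2 lay above 4 of the C arrays. The log2 change was -0.22 ± 0.12 (SE, n = 5 per group, limma adjusted p = 0.171), and its 95% interval was -0.48 to 0.05. Cbs was called lower when slide entered the fit (adjusted p = 0.0186), after quantile normalisation (adjusted p = 0.0454) and relative to the array median (adjusted p = 0.0498).

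Cth, on chromosome 3, encodes the lyase that splits cystathionine to release cysteine. Cth read -5.26, -6.18, -6.76, -6.52 and -5.86 in R, against -4.64, -4.05, -4.59, -4.61 and -4.21 in C. It was well above background on 0 of 5 R arrays and 5 of 5 C arrays, and the measured means were -6.12 ± 0.59 in R and -4.42 ± 0.27 in C (SD, n = 5 each). With the R signals raised to a floor, Cth was 1.45-fold lower in R, which is a bound for these processed signals only. It sets the C mean against the mean, over the R arrays, of the higher of the Cth signal and the lowest signal that was well above background on that array, which came to -4.96. With normexp background correction, which raises dim spots, the fitted log2 change was -0.45. That is a smaller fall than the bound, so 1.45 is not a lower limit under every processing. The fall of Cth is given as a description with no test, since it was known when the set was drawn up. Only Cth of the 9 genes passed the filter on dim probes without being well above background on all 10 arrays.

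Probes of the same gene did not always read the same difference. Another probe was tested for 5 of the genes, and of these probes 0 were called lower and 1 was called higher, against 17.1% and 21.4% of all tested probes and 38.6% in either direction. The other probe of Shmt2 read -7.40 to -6.38 in R and -7.79 to -6.79 in C, was well above background on 0 of 10 arrays and was not tested. The sources used here do not say which transcript ends these probes report.

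**Figure D2:**
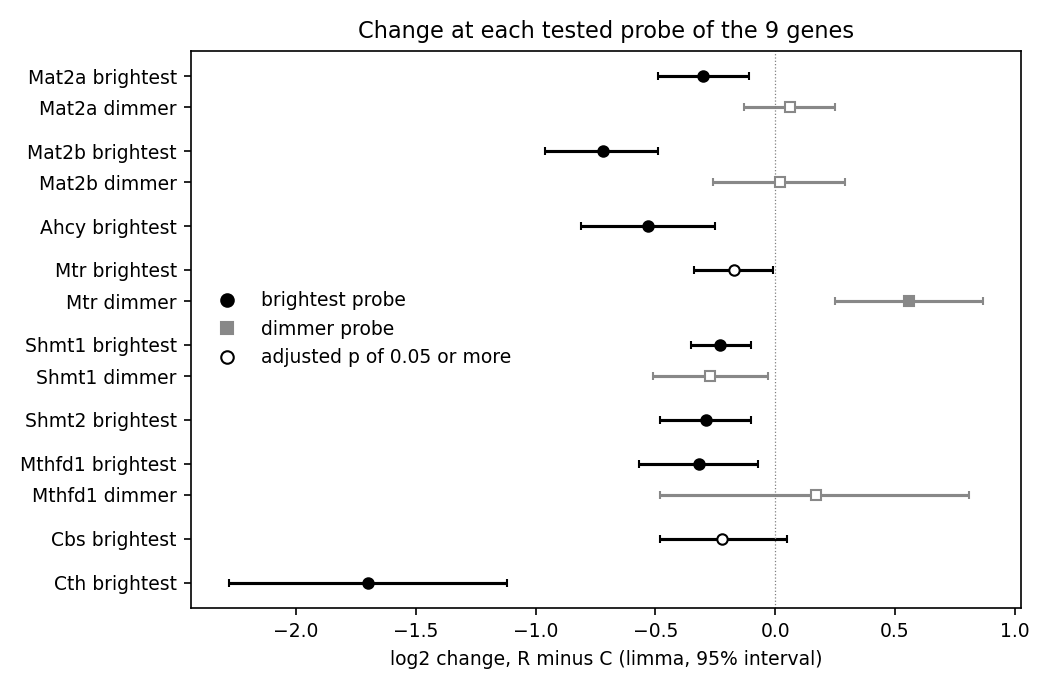
Log2 change, R minus C (horizontal axis, limma estimate with its 95% interval) at each of the 14 tested probes of the 9 genes (vertical axis). Brightest probes are black circles, dimmer probes grey squares, and open symbols had an adjusted p of 0.05 or more. All brightest probes lie below 0, while the dimmer probes lie between -0.27 and 0.56, and the value of Cth is a fit to R signals that were not well above background.

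The dimmer Mat2b probe, designed on another transcript of the gene (NM_134017, against NM_001199274 for the brightest), read -1.23, -1.05, -1.46, -1.30 and -1.37 in R, against -1.26, -0.90, -1.41, -1.46 and -1.46 in C. The groups covered the same range, and the log2 change was 0.02 ± 0.12 (SE, n = 5 per group, limma adjusted p = 0.913), with a 95% interval of -0.26 to 0.29. Within each array the brighter minus the dimmer probe was 1.23 ± 0.14 in R and 1.97 ± 0.11 in C (SD, n = 5 each). This difference between the probes was itself lower in R (exact 2-sided permutation p = 0.00794, the smallest that 252 splits allow, adjusted p = 0.0198 over 5 probe pairs), with no overlap of the groups.

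The dimmer Mat2a probe read 3.51, 3.41, 3.31, 3.41 and 3.41 in R, against 3.53, 3.53, 3.30, 3.22 and 3.18 in C. These ranges overlapped, with R inside the range of C, and the log2 change was 0.06 ± 0.09 (SE, n = 5 per group, limma adjusted p = 0.588). Both Mat2a probes were nearly as bright, and in the R arrays the second had the higher mean, 3.41 against 3.37, so that the choice of the brighter one rested on the C arrays. Within an array the first minus the second probe was -0.04 ± 0.10 in R and 0.32 ± 0.22 in C (SD, n = 5 each, exact permutation p = 0.0159, adjusted p = 0.0265).

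Mtr gave opposite signs. Its dimmer probe read -2.79, -2.75, -3.22, -3.13 and -3.04 in R, against -3.18, -3.58, -3.53, -3.58 and -3.89 in C. R was higher apart from an overlap of R replicate 3 with C replicate 1, and the probe was called higher in R (1.48-fold, log2 change 0.56 ± 0.14, SE, n = 5 per group, limma adjusted p = 0.0126). That call was lost relative to the array median (0.35, adjusted p = 0.0714) and after quantile normalisation (0.36, adjusted p = 0.0720). It was also lost without R replicate 1 and C replicate 5 together (0.43, adjusted p = 0.0605), in the grouping of the authors' deposited table (0.12, adjusted p = 0.754), within slide 1 (0.40, adjusted p = 0.130) and within slide 2 with its single R array (0.62, adjusted p = 0.151). The within-array difference of the Mtr probes was 2.72 ± 0.21 in R and 3.46 ± 0.22 in C (SD, n = 5 each, exact permutation p = 0.00794, adjusted p = 0.0198), and it carries no array scaling. No single direction is therefore given for Mtr.

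For Mthfd1 and Shmt1 the probes were not shown to differ in their change. The dimmer Mthfd1 probe spread widely, from 0.53 to 1.71 in R and from 0.45 to 1.81 in C, with a log2 change of 0.17 ± 0.29 (SE, limma adjusted p = 0.668), and the 2 probes' difference gave an exact permutation p of 0.0873 (adjusted p = 0.109, n = 5 per group). The dimmer Shmt1 probe read -3.77 to -3.30 in R and -3.41 to -3.04 in C, with a log2 change of -0.27 ± 0.11 (SE, limma adjusted p = 0.0723), close to the -0.23 of the brightest. Over the mean of all tested probes of a gene, limma called 5 of the 9 genes lower, and Mat2a and Mthfd1 were not among them.

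**Figure D3:**
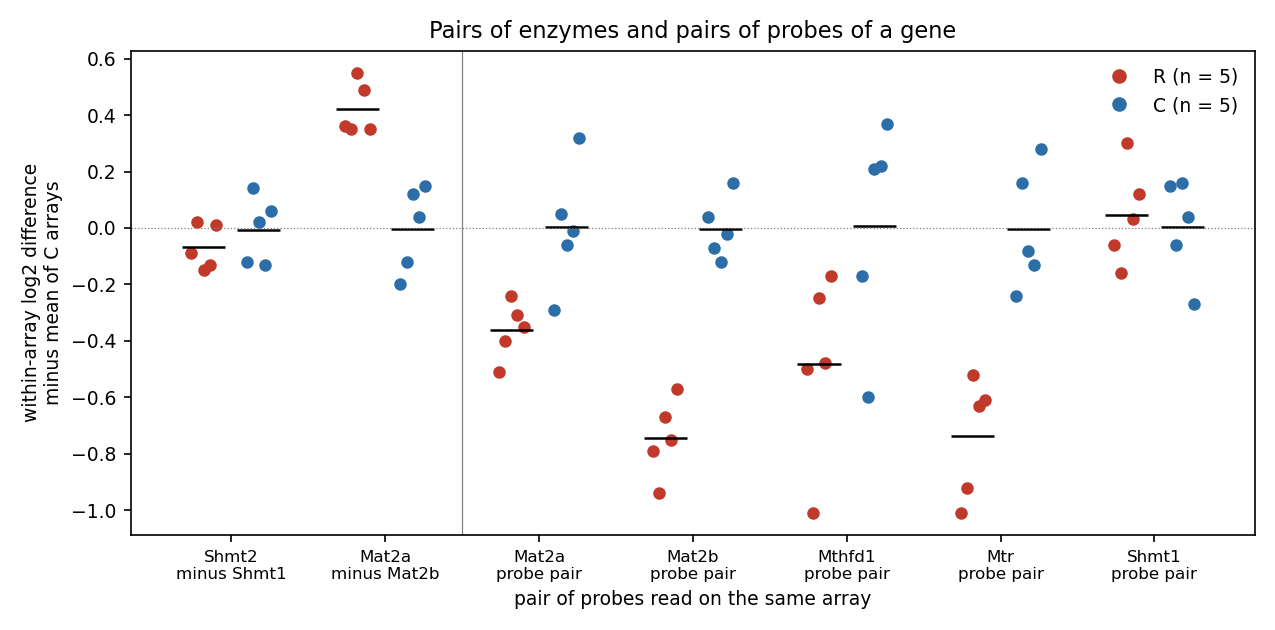
Difference in log2 signal between 2 probes read on the same array, minus its mean in the C arrays (vertical axis), for 2 pairs of enzymes and 5 pairs of probes of a gene (horizontal axis). Each point is a testis, R in red left of C in blue, with the group mean as a bar. Groups are separate for Mat2a minus Mat2b and for the probe pairs of Mat2b and Mtr, while Shmt2 minus Shmt1 overlaps.

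Both subunits of the SAM-forming enzyme and both serine hydroxymethyltransferases were set against each other within arrays, 2 pairs in all. Mat2a minus Mat2b was 3.42 ± 0.09 in R and 3.00 ± 0.15 in C (SD, n = 5 each), a shift of 0.42 (exact permutation p = 0.00794, adjusted p = 0.0159). At the brightest probes Mat2b thus changed more than Mat2a. This order turned with the dimmer Mat2b probe, where the shift was -0.32 (exact permutation p = 0.0238), and it was 0.04 with the dimmer probes of both (exact permutation p = 0.548). The shift was 0.78 with the dimmer Mat2a probe (exact permutation p = 0.00794) and 0.23 over the mean of each gene's probes (exact permutation p = 0.0159). Shmt2 minus Shmt1 was -0.06 ± 0.08 in R and 0.01 ± 0.12 in C (SD, n = 5 each, exact permutation p = 0.310, adjusted p = 0.310), so that no difference between the mitochondrial and the cytosolic form was shown. As each array was left out its shift lay between -0.10 and -0.03.

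Promoters of the enzymes whose brightest probes fell together are shown to let the pairs be compared. RefSeq's table for GRCm38.p6 held 8 of the 9 genes, and the 250 bases before the start are printed 5′ to 3′ on the gene's strand for both subunits of the SAM-forming enzyme and for both serine hydroxymethyltransferases. Capitals mark matches on either strand to the GC box GGGCGG, the CCAAT box CCAAT, the TATA box TATAAA and the core GCATGCGC of the NRF1 motif. For Mat2b the start in that table lies inside the annotated span of the gene.
Mat2a, chr6:72439557-72439806, minus strand: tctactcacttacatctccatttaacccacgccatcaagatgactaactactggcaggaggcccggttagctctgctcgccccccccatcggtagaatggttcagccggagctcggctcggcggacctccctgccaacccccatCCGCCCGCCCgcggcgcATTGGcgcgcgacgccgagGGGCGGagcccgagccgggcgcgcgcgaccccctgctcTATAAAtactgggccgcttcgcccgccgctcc
Mat2b, chr11:40692683-40692932, minus strand: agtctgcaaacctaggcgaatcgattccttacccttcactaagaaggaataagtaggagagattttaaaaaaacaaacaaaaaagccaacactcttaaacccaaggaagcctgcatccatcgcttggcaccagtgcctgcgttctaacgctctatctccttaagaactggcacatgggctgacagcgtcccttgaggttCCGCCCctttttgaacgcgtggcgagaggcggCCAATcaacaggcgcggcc
Shmt1, chr11:60811266-60811515, minus strand: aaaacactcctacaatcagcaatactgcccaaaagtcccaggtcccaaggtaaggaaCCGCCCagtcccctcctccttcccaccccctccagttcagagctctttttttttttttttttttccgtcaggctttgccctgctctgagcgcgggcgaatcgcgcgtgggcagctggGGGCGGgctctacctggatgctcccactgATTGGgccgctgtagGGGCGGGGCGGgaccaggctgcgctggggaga
Shmt2, chr10:127522445-127522694, minus strand: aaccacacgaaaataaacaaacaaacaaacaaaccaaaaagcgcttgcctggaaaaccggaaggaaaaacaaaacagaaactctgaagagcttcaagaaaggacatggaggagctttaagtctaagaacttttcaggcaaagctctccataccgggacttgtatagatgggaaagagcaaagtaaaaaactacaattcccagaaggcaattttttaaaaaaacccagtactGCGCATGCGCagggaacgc

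Of the 8 promoters, 7 held a GC box, which 32.7% of all 32851 windows held, and 7 held a CCAAT box, which 33.8% held. Matches of the GC box may overlap one another, as they do in Mat2a and Shmt1. Shmt2 had neither box. Its window held the NRF1 core in overlapping matches on both strands between 19 and 10 bases before the start, and 2.3% of all windows held that core, while Shmt1 had 4 GC boxes. Mat2a had a TATA box 32 to 27 bases before the start, as 12.4% of windows did anywhere. Searches for the E-box CACGTG (6.0% of windows), the antioxidant response motif TGACNNNGC (10.2%), the amino acid response motif TGATGNAA (3.5%) and the cAMP motif TGACGTCA (1.5%) matched only the E-box, in Cbs. The windows had 7 to 29 CpG dinucleotides with a median of 14, against a median of 6 over all windows. Shmt1 and Shmt2 differed in these letters and were not shown to differ in their change.

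Outside the 9 enzymes, 87 genes of 7 lists of the neighbouring pathway were tested, and limma called 35 lower and 2 higher in R and 50 neither, against 20.6% and 14.9% of all tested genes. Their median log2 change was -0.27. Without C replicate 2 limma called 31 lower and 1 higher, and without R replicate 1 and C replicate 5 together 14 lower and 0 higher. Of all tested probes, 16.1% and 8.7% were lower in these settings, against 17.1% with all arrays. Those called higher were 21.8% and 9.4%, against 21.4%. The lists were chosen with earlier results of these data known.

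**Figure D4:**
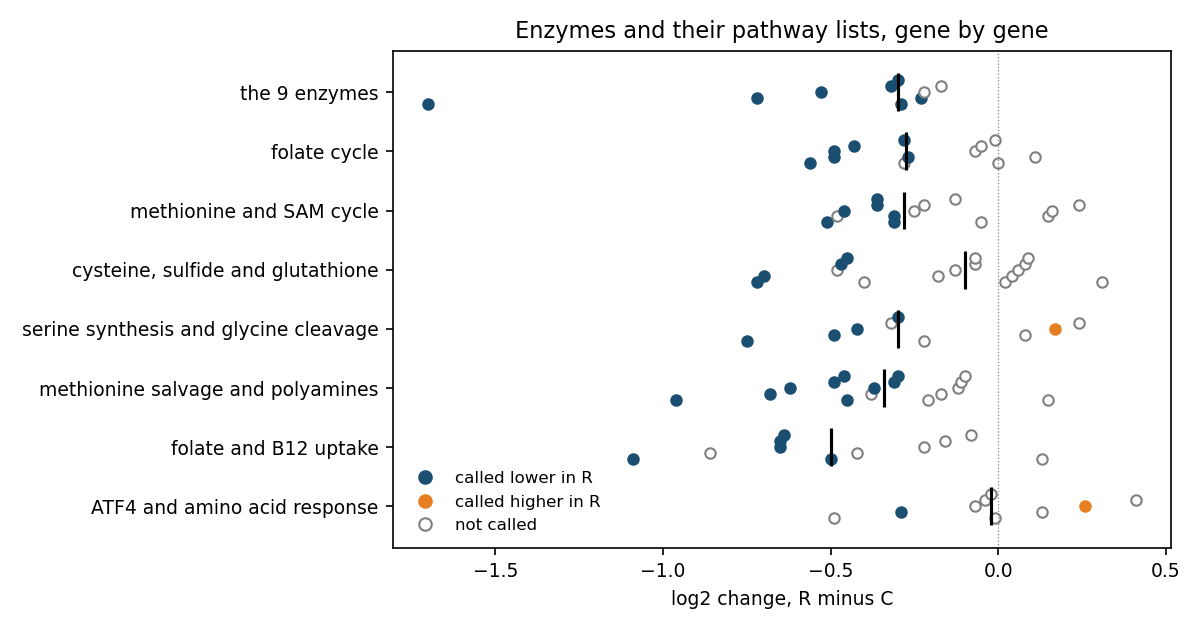
Log2 change, R minus C (horizontal axis) of the 9 enzymes and of the tested genes of 7 pathway lists (vertical axis), with 1 point per gene at its brightest tested probe. Dark points were called lower in R, orange points higher and open points neither, bars are list medians, and the point of Cth is a fit to R signals not well above background. Medians run from -0.50 for folate and B12 uptake to -0.02 for the amino acid response.

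Folate and B12 uptake had the lowest median, -0.50, with 5 of 11 genes called lower and 0 higher. Ggh, the lysosomal hydrolase that trims folate polyglutamates, averaged -0.80 ± 0.08 in R and 0.29 ± 0.31 in C (SD, n = 5 each), 2.12-fold lower (limma adjusted p = 0.00139) with no overlap of the groups. Lmbrd1, which exports vitamin B12 from lysosomes, was 1.56-fold lower, the reduced folate carrier Slc19a1 1.57-fold, and the proton-coupled folate transporter Slc46a1 1.41-fold lower (limma adjusted p = 0.00731, 0.0171 and 0.0436, n = 5 per group).

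Of 12 other folate cycle genes 6 were lower and 0 higher, with a median of -0.28. Gart, of purine synthesis, was 1.41-fold lower, Tyms, which makes thymidylate, 1.40-fold, and Mthfs 1.21-fold lower in R (limma adjusted p = 0.00974, 0.0258 and 0.0186, n = 5 per group). The mitochondrial genes Mthfd2, Mthfd2l and Mthfd1l did not pass, at log2 changes of -0.01, 0.00 and -0.07.

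Of 14 methionine and SAM cycle genes 6 were lower and 0 higher, with a median of -0.28. Gamt, which uses SAM to make creatine, was 1.43-fold lower, Mmachc, which processes vitamin B12, 1.24-fold, Bhmt2 1.29-fold and Ahcyl1, a relative of Ahcy, 1.24-fold lower (limma adjusted p = 0.00661, 0.00993, 0.0144 and 0.0145, n = 5 per group). Of 16 genes of methionine salvage and polyamines 9 were lower and 0 higher, with a median of -0.34. Azin1, the antizyme inhibitor, was 1.40-fold lower, the antizyme gene Oaz1 1.53-fold, Adi1, of methionine salvage, 1.94-fold and Oaz3, the antizyme of spermatids, 1.30-fold lower (limma adjusted p = 0.00142, 0.00255, 0.00477 and 0.00627, n = 5 per group), while Odc1, the first enzyme of polyamine synthesis, was at a log2 change of 0.15 (adjusted p = 0.0735).

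Of 9 genes of serine synthesis and glycine cleavage 4 were lower and 1 higher, with a median of -0.30. Dld, a subunit shared by several mitochondrial complexes, fell 1.33-fold, Gcat, which makes glycine from threonine products, 1.69-fold and Psph, the last enzyme of serine synthesis, 1.23-fold (limma adjusted p = 0.00233, 0.0170 and 0.0254, n = 5 per group). Phgdh, the first enzyme of serine synthesis, was the gene called higher, at 3.40 ± 0.07 in R and 3.24 ± 0.05 in C (SD, n = 5 each, adjusted p = 0.0479).

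Downstream of Cth lie the genes of cysteine, sulfide and glutathione, of which 4 of 16 were lower and 0 higher, with a median of -0.10. Chac2, which degrades glutathione, was 1.65-fold lower, Gsr, the glutathione reductase, 1.63-fold, Slc3a2, a heavy chain of amino acid transporters, 1.38-fold and Tst, a sulfur transferase, 1.36-fold lower (limma adjusted p = 0.00170, 0.0194, 0.0190 and 0.0102, n = 5 per group). Gclc and Gclm, the subunits of the enzyme that commits cysteine to glutathione, did not pass, at log2 changes of 0.08 and 0.02. The cystine carrier gene Slc7a11 was at -0.18 (adjusted p = 0.112). Of 9 genes of the amino acid response, in which ATF4 acts, 1 was higher, Aars, and 1 lower, Nars, with a median of -0.02.

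Markers of the main testis cell types were read on the same arrays, against the 20.6% of all tested genes lower and the 14.9% higher. The Sertoli cell list had 12 of 14 genes lower and 1 higher in R, with a summed level of 190 to 240 times the 75th percentile in R and 219 to 306 in C. Markers of spermatogonia had 5 of 10 lower and 1 higher, with sums of 20.7 to 24.1 in R and 26.0 to 43.9 in C, and those of spermatocytes 4 of 10 lower and 1 higher, with sums of 37.0 to 39.8 in R and 45.8 to 56.1 in C. These germ cell sums did not overlap between the groups. They add linear levels, so bright genes weigh most, as Uchl1 and Stra8 do for spermatogonia (means of 4.29 and 2.58 in C, both called lower). Of the 10 markers of each list, 4 of spermatogonia and 5 of spermatocytes were not called, and Gfra1 and Sycp2 were those called higher. Round spermatid markers had 1 of 10 lower and 0 higher, a median log2 change of -0.04 and overlapping sums of 107 to 127 in R and 95.7 to 129 in C. All genes of these 4 lists had a tested probe. Their part in the levels of the enzymes was not tested, and in whole testes fewer cells of a type cannot be told apart from less RNA per cell.

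The enzymes also varied together among animals of the same group. After group means were removed, the brightest probes gave 36 pairs over 10 arrays, all with positive correlations, a median r of 0.58 and a range of 0.03 to 0.91. Much of this rested on C replicate 2, since without it the median was 0.28, the range -0.61 to 0.79, and 28 of 36 pairs were positive. Ahcy and Shmt2 varied most alike, at r = 0.91 and 0.79 without C replicate 2. The arrays of a slide share their hybridisation and scan, so these values are descriptions. The median r was not taken over pairs of other genes, so it is not shown to be particular to the enzymes. Among 15288 other genes well above background on all 10 arrays (15289 for Cth), the most alike by the same measure was Prkar2b for Ahcy (r = 0.990), Isoc2b for Mat2b (r = 0.985), Fam172a for Mat2a (r = 0.977), Rnf152 for Mtr (r = 0.964), Ssbp4 for Mthfd1 (r = 0.993), Inha for Shmt1 (r = 0.982), H2-Q2 for Shmt2 (r = 0.941), Lepr for Cbs (r = 0.971) and Relch for Cth (r = 0.896).

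The direction of the changes at the brightest probes was kept by most settings. Relative to the array median instead, the median of all tested genes moved from -0.03 to -0.23. That of the 9 enzymes moved from -0.30 to -0.51. All 8 enzymes other than Cth were called lower there, as were 31.2% of all tested probes. In that scaling 27.6% of all called probes were higher, against 55.6% with the 75th percentile, and 44.7% with quantile normalisation. The authors' scaling factors gave -0.24 for the 9 enzymes and 0.04 for all tested genes. With them limma called 6 of the 8 enzymes other than Cth lower, as before, and 14.4% of all tested probes.

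**Figure D5:**
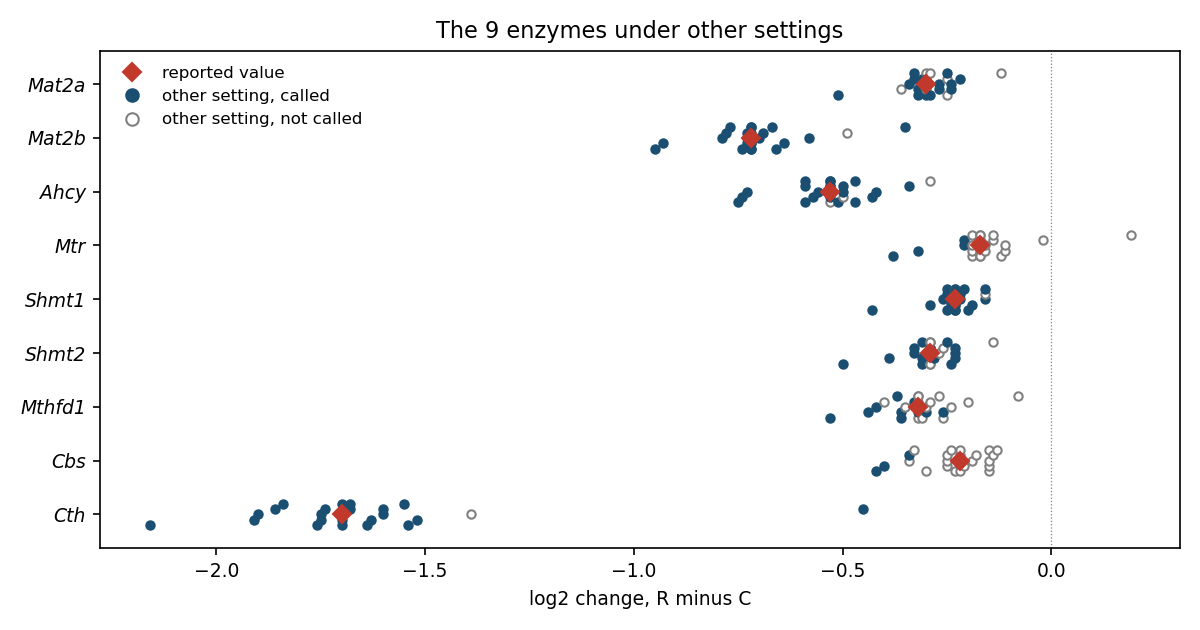
Log2 change, R minus C (horizontal axis) of the 9 enzymes (vertical axis) under the reported setting, as red diamonds, and under the other settings, as circles that are filled where the gene was called. The grouping of the authors' deposited table is not drawn, and the values of Cth are fits to R signals not well above background. All circles lie below 0 except 1 of Mtr, at 0.19, from the mean of its 2 probes.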

How the data were processed

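Total RNA of single testes was labelled with the dye Cy3 and hybridised to 1-colour Agilent arrays, per the labels' protocols. The intensity values were deposited by the authors as scanner output. Per the submitters' processing notes this came from version 12.0.3.1 of Agilent's Feature Extraction, and per the file headers the annotation build is mm9. For 2266 probes the authors also deposited a table of intensity values scaled per array with a p-value, a q-value and a log2 ratio each. Its p-values matched an equal-variance comparison of linear intensities within 2.8e-09. A further 10 columns of per-sample flags and the table's side means were not used.

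Spots of a probe were averaged after outlier spots were left out. The 75th percentile was taken over non-control spots. Tested were the 33851 of 56605 probes flagged well above background on 5 or more of 10 arrays, with limma 3.58.1 in R 4.3.3 at an adjusted p of 0.05, all 10 arrays in the fit. The filter keeps probes seen only in 1 group, such as Cth. Probes were named by accession in a RefSeq table of GRCm38, which matched 33767. Differences within arrays were compared by exact permutation. The procedure was tested on simulated data. Named were all 9 enzymes, up to 4 called genes of smallest p per pathway list and the most alike gene of each enzyme. One gene that this rule names is not reported here. Other genes were named after their values were seen. The members and lists were chosen with earlier results of these data known. The sources used here do not name litters, so p-values measure only the spread between these animals. The number of arrays limits the precision. Normexp used the median spot intensity.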

Additional observations from a re-analysis of the deposited data

How the results depend on the processing

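At the brightest probes, 7 of 9 enzymes were called lower, or 6 of 8 without Cth. The 6 became 3 with no filter on dim probes and 1, Mat2b, with the study's fold and q thresholds. Without R replicate 1 and C replicate 5 together it became 2. In these settings 6.8%, 4.6% and 8.7% of all tested probes were called lower, against 17.1%. The grouping of the authors' deposited table gave 0 of the 9 (1 at an unadjusted p under 0.05 by limma). Leaving out single arrays gave 3 to 7 of the 8. Slide 2 holds a single R array, so no count of calls is given for it. For the 87 pathway genes the 35 called lower became 22 with no filter, 10 with the study's thresholds and 14 without those 2 arrays. The table's grouping gave 0 (12 of the 87 at an unadjusted p under 0.05 by limma). The 13059 called probes became 5309 with the study's thresholds, 6116 without those 2 arrays, and 0 in the table's grouping (2567 at an unadjusted p under 0.05 by limma). The shift of Mat2a minus Mat2b, 0.42, was 0.59 within slide 1, 0.25 within slide 2, -0.32 with the dimmer Mat2b probe and 0.04 with the dimmer probes of both, where the 15 and 4 splits within the slides are too few for an exact p under 0.05. It was 0.78 with the dimmer Mat2a probe. The choice of these dimmer probes and all settings for the pathway genes were added after seeing the data. The cause of these changes was not tested. The mean over a gene's probes gives genes and was not run for the count of probes. Mtr over the mean of its probes had a log2 change of 0.19. Over single probes of the 9 genes, 287 values stayed on their side of the threshold, 47 lost a call and 10 gained one, with the mean over probes left out. No paired analysis was possible because the labels give no replicate numbers that pair animals across groups.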

Other observations

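The other cell type lists are read against the 20.6% of all tested genes called lower and the 14.9% called higher. Of 8 Leydig cell genes 3 were lower and 0 higher in R, with summed levels of 20.5 to 26.9 in R and 25.2 to 46.1 in C. Of 9 macrophage genes 5 were lower and 0 higher, with sums of 2.64 to 4.22 in R and 3.76 to 6.14 in C, and of 3 blood genes 2 were lower. Of 7 endothelial genes 3 were higher and 0 lower, with overlapping sums of 4.84 to 5.85 in R and 4.26 to 4.97 in C. Of 6 peritubular myoid genes 1 was higher and 0 lower, of 9 elongating spermatid genes 2 were lower and 0 higher, and of 8 adipocyte genes 0 passed by limma. Of the epididymal and hepatocyte lists 1 of 7 and 2 of 5 genes were tested and 0 passed by limma, and Alb, Ttr and Apoa1 had no tested probe.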
